A study of Rattus rattus with 8 samples.

Results

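The EGF receptor family and its ligands were followed in hair follicles of rats exposed to a simulated blast. The members were 9 genes, namely the receptors Egfr, Erbb2 and Erbb3 and the ligands Egf, Tgfa, Areg, Ereg, Hbegf and Btc. They were found on the array by RefSeq accession, from NM_031507 for Egfr to NM_022256 for Btc, and all 9 had a probe among the 26997 different accessions that the probes carry. The animals were male adult Sprague-Dawley rats, with 1 array per rat. The 3 sham control rats (C1, C2 and C3) are labelled 0 kPa. The 5 blast rats took a single shock wave to the head under isoflurane, at 145 kPa for M2 and M3, 175 kPa for H1 and 200 kPa for XH1 and XH3. Whisker follicles of a rat were pooled into 1 RNA sample, so a value is the mean over several follicles. The study collected follicles at more than 1 time after exposure, and the labels do not give the time for the single rats. Time was therefore in no model, and its part in any difference with blast or pressure cannot be told apart. Differences between sham control and blast and differences with pressure were the questions the groups could address.

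Receptors of this family are tyrosine kinases that pair at the cell surface once a ligand binds and then signal through the MAP kinase and Akt routes. The ligands are made as precursors anchored in the membrane and are released by proteases, so the mRNA level of a ligand is not the amount that reaches a receptor. In skin and hair follicles the family is known for its control of keratinocyte growth and of the hair cycle, and mice that lack Tgfa have wavy hair and curled whiskers.

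All 8 arrays lay on 1 slide. The share of spots well above background ran from 65.9% in M3 to 73.0% in C1, and the median processed signal from 90.9 in C2 to 280.5 in C1, before the arrays were brought to 1 common distribution. The 9 genes had 13 probes and 40 spots on each array. A probe was counted as well above background on an array where at least 1 of its spots was flagged so. Of the 13 probes, 10 were well above background on all 8 arrays, and 8 of the 9 genes had such a probe. The exception was Btc. No probe of the family was saturated. Levels below are log2 of the normalized intensity, a gene is represented by its brightest probe, and a level of 1 probe cannot be set against that of another. M3 and H1 had the lowest median correlation with the other arrays, 0.974 for each.

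No member passed the test between blast and sham control. With limma's p adjusted over all probes, 0 of 9 genes were under 0.05, where 0% of the 30366 probes tested were. At an unadjusted p under 0.05 the count was again 0 of 9, beside 850 probes or 2.80% of all those tested. The groups did not overlap, with each blast rat above or each below the 3 sham control rats, in 0 of 9 genes, against 605 of 30217 probes, or 2.0%. By direction alone, 3 genes had a higher mean in blast and 6 a lower one, but the split changed with single rats and settings. It was 6 and 3 without C1, 1 and 8 without C2, 5 and 4 with array weights and 4 and 5 with normexp background correction. The median difference of the 9 genes was −0.09 on the log2 scale, beside 0.0045 over all probes tested. For the 8 genes above background it was −0.14, beside −0.0093 over the 17631 probes above background on all arrays. The median size of the difference was 0.180 for these genes and 0.182 for these probes. In RNA from a whole follicle, fewer cells of a type and less RNA per cell cannot be told apart.

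Egfr (NM_031507) encodes the receptor that binds all 6 ligands examined here. Its level was 11.63, 10.698 and 11.07 in C1, C2 and C3, and 10.98, 10.32, 10.95, 11.49 and 10.94 in M2, M3, H1, XH1 and XH3. C1 and XH1 were the highest rats and M3 was the lowest, and the groups overlapped. The mean was 11.13 ± 0.47 (SD, n = 3) in sham control and 10.93 ± 0.42 (SD, n = 5) in blast. Blast minus sham control was −0.20 (95% CI −0.89 to 0.50; exact permutation p = 0.589). Without C1 the difference was 0.05, so its sign rested on that rat.

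Erbb2 (NM_017003) has no known ligand of its own and serves as the partner of the other receptors. By its brightest probe the level was 12.92, 11.66 and 12.04 in C1, C2 and C3, and 11.67, 11.24, 11.49, 12.26 and 12.03 in M2, M3, H1, XH1 and XH3. C1 stood highest and M3 lowest, and M3 and H1 lay under the lowest sham control rat, with M2 level with it. The difference was −0.47 (95% CI −1.26 to 0.32; exact permutation p = 0.250). It was −0.11 without C1, the sham control rat with the highest level, and −0.74 without C2. A further probe, A_64_P109493, gave a difference of −0.19. It followed the brightest one across the 8 rats, with r = 0.857 (exact permutation p = 0.00521, adjusted 0.0104) and rho = 0.810 (exact permutation p = 0.0218, adjusted 0.0436), and r was 0.984 without C1 and M3. The dimmest probe, A_64_P038812, was well above background on 7 arrays, H1 being the exception, and gave a difference of 0.02. Its r with the brightest one was 0.279 (exact permutation p = 0.498, adjusted 0.498) and rho was 0.143 (exact permutation p = 0.752, adjusted 0.752), while r was 0.720 without C1 and M3. M3 was lowest on the brightest probe and highest on this one.

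Erbb3 (NM_017218) binds neuregulins and has little kinase activity of its own. Its level was 6.87, 5.88 and 6.16 in C1, C2 and C3, and 6.35, 6.87, 6.14, 6.61 and 6.35 in M2, M3, H1, XH1 and XH3. C1 and M3 were the highest rats, 1 from each group, and every blast rat fell inside the range of the sham control rats. The difference was 0.16 (95% CI −0.45 to 0.77; exact permutation p = 0.607). It was 0.45 without C1 and −0.05 without C2.

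**Figure D1:**
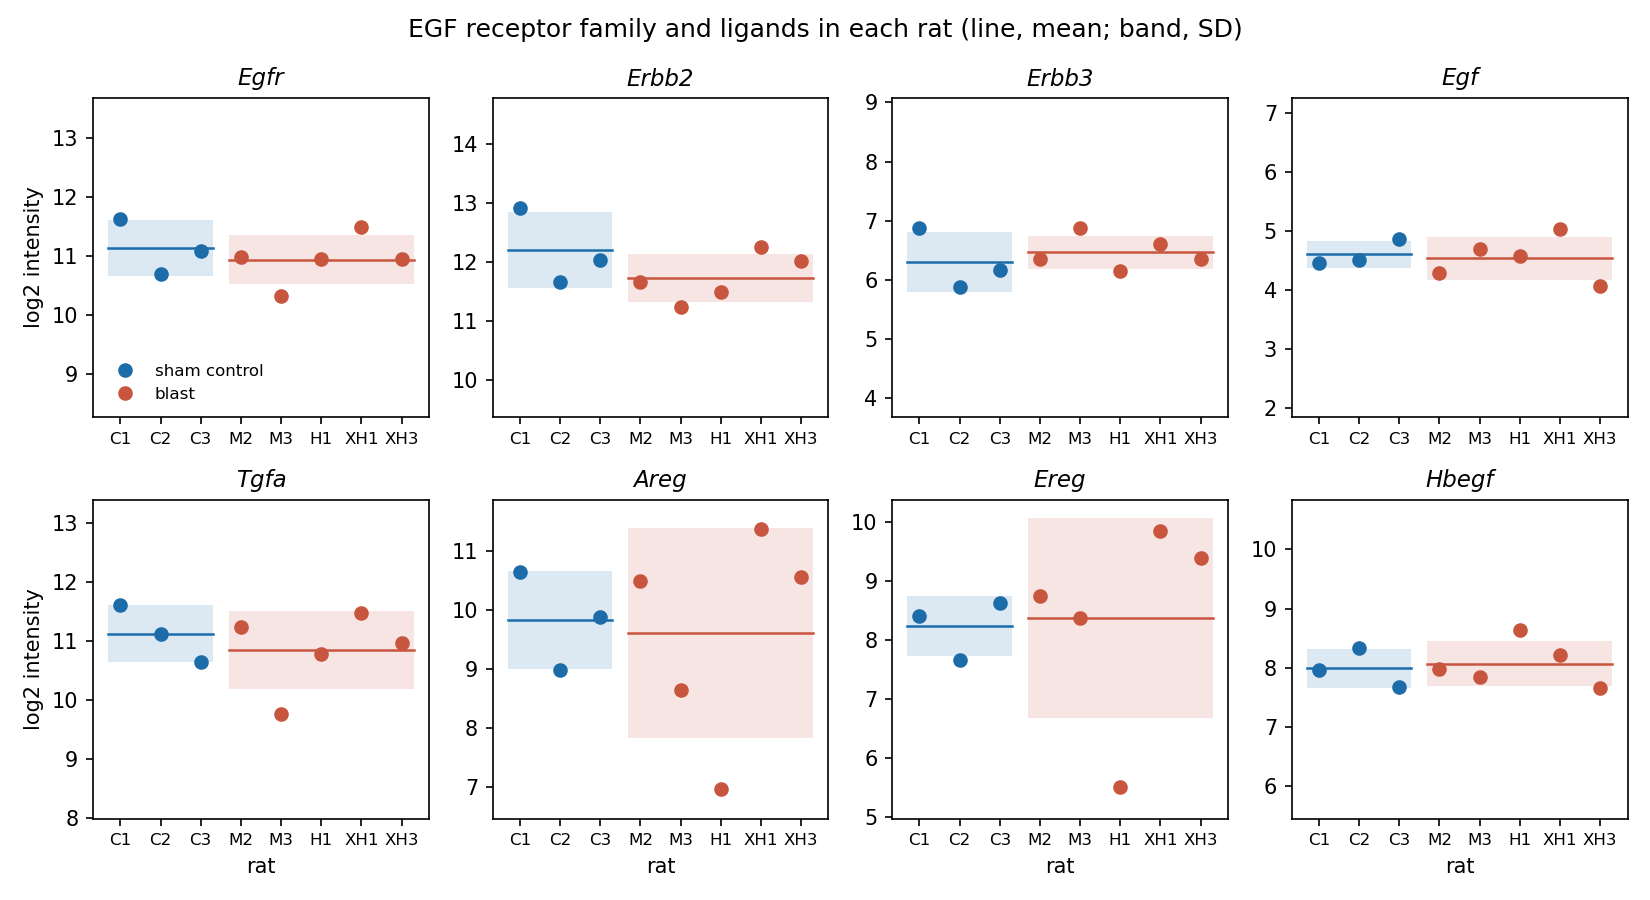
Log2 normalized intensity (vertical axis) of the 8 member genes well above background, in each of 3 sham control rats (blue) and 5 blast rats (red), with the group mean as a line and 1 SD as a band. Each panel has its own axis of the same span, the groups overlap in every panel, and H1 lies lowest for Areg (6.98) and Ereg (5.51).

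Egf (NM_012842), the ligand after which the family is named, was close to the background. Its representative probe, A_42_P831499 with 10 spots, read 4.45, 4.50 and 4.87 in C1, C2 and C3, and 4.29, 4.70, 4.58, 5.03 and 4.07 in M2, M3, H1, XH1 and XH3. Blast rats were both the highest (XH1) and the lowest (XH3). The difference was −0.07 (95% CI −0.62 to 0.47; exact permutation p = 0.750). The second probe, A_64_P120734, was not well above background on any array, so no fold is given for it. Its means were 2.33 in sham control and 2.85 in blast, and it was the 1 probe of the 13 with an unadjusted limma p under 0.05 (limma adjusted p = 0.9999; exact permutation p = 0.0714). It was also the 1 probe of the 13 under that value in the test with pressure described further on.

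Tgfa (NM_012671) encodes a ligand of Egfr that keratinocytes make themselves. By its representative probe, A_44_P310168, the level was 11.62, 11.12 and 10.65 in C1, C2 and C3, and 11.25, 9.78, 10.78, 11.48 and 10.97 in M2, M3, H1, XH1 and XH3. C1 and XH1 were highest, as for Egfr, and M3 was again the lowest rat. The difference was −0.28 (95% CI −1.23 to 0.67, exact permutation p = 0.554). It was −0.01 without M3, −0.52 without C3 and 0.15 with array weights.

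The second Tgfa probe, A_64_P122865, ordered the rats the other way round. It read 9.61, 10.80 and 10.39 in C1, C2 and C3, and 9.89, 12.38, 11.42, 10.02 and 10.33 in M2, M3, H1, XH1 and XH3. Here M3 was the highest rat and C1 the lowest, the reverse of their places on the first probe, although both probes were well above background on all 8 arrays and carry 1 accession. Blast minus sham control was 0.54 by this probe (95% CI −0.91 to 1.99; exact permutation p = 0.464), and it was 0.15 without M3, 0.21 without C1, 0.80 without C2 and 0.031 with array weights. Across the 8 rats the correlation between the probes was −0.898 (exact permutation p = 0.00407; adjusted over 4 pairs of probes of 1 gene, 0.0104), with Spearman's rho at −0.857 (exact permutation p = 0.0107, adjusted 0.0429). Without C1 and M3, the rats farthest from the median, r was −0.578. Without M3 alone it was −0.715 (exact permutation p = 0.0679), while without C1 alone it was −0.873 (exact permutation p = 0.0167), so of these rats M3 weighed most. The second probe ranged over 2.77 log2 units between rats. The median SD between spots was 0.055 for the first probe and 0.049 for the second, which covers the error within an array but not that of sampling or labelling a rat. The mean of both probes gave a difference of 0.13 for Tgfa, of the opposite sign to that of the first probe. Which transcripts each probe binds was not analysed here.

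**Figure D2:**
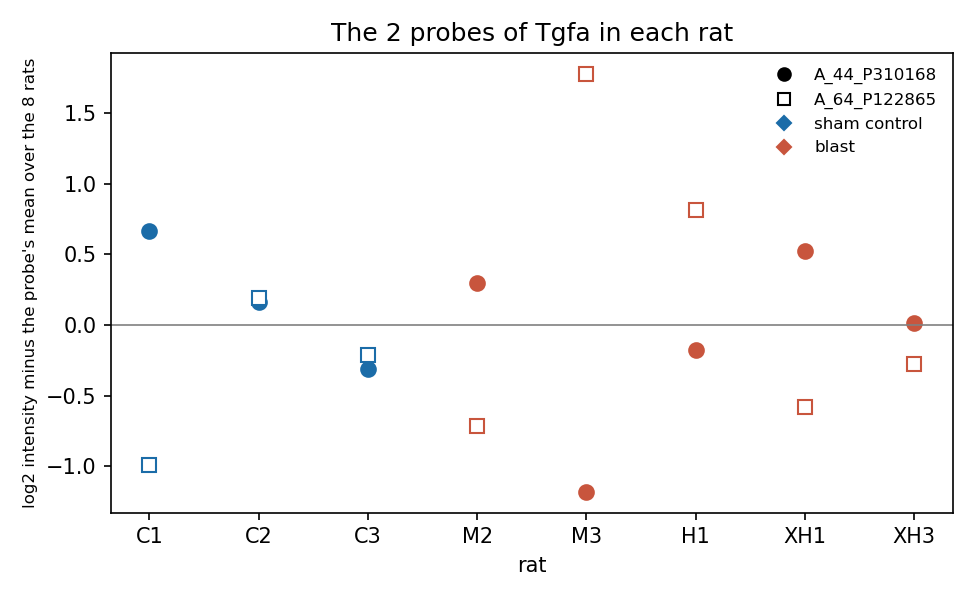
Log2 normalized intensity of each of the 2 Tgfa probes minus that probe's own mean over the 8 rats (vertical axis), for each rat (horizontal axis). Filled circles are A_44_P310168, open squares are A_64_P122865, blue is sham control and red is blast, and C1 and M3 show the widest opposite shifts.

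Areg and Ereg, which encode the Egfr ligands amphiregulin and epiregulin, had the widest ranges between rats among the representative probes, and H1 set the lower end of both. Areg (NM_017123) read 10.64, 8.99 and 9.88 in C1, C2 and C3, and 10.49, 8.65, 6.98, 11.37 and 10.57 in M2, M3, H1, XH1 and XH3. XH1 was the highest rat and H1 the lowest, both of them blast rats, with the sham control rats between them. That range of 4.39 log2 units is 21.0-fold, and without H1, left out after seeing the data, it was 2.72 units or 6.59-fold, beside 2.77 units on the second Tgfa probe. Of the 17534 probes well above background and with a value on all arrays, 1.45% had a larger SD within groups.

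The group means of Areg were 9.84 ± 0.83 (SD, n = 3) in sham control and 9.61 ± 1.78 (SD, n = 5) in blast. The difference was −0.23 (95% CI −2.58 to 2.13; exact permutation p = 0.839), which in fold terms runs from 0.167 to 4.36 times the sham control level. The sign depended on single rats, at 0.43 without H1, 0.01 without M3 and 0.17 without C1. It stayed negative without XH1, at −0.67. Without both H1 and M3, a choice made after seeing the data, the difference was 0.97.

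Ereg (NM_021689) read 8.41, 7.65 and 8.63 in C1, C2 and C3, and 8.73, 8.36, 5.51, 9.83 and 9.39 in M2, M3, H1, XH1 and XH3. H1 was again the lowest rat and XH1 the highest, and M2, XH1 and XH3 exceeded the highest sham control rat. The range was 4.32 log2 units (20.0-fold), or 2.18 units (4.53-fold) without H1, and 1.996% of those 17534 probes had a larger SD within groups. Blast minus sham control was 0.14 (95% CI −2.04 to 2.32; exact permutation p = 0.929). It was 0.85 without H1, −0.23 without XH1, −0.12 without XH3 and −0.15 without C2. Without both H1 and M3 it was 1.09, with an unadjusted limma p of 0.0356 and an adjusted p of 0.836, in a fit where 5.87% of all probes had an unadjusted p under 0.05.

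Hbegf (NM_012945) encodes a ligand that binds heparin and takes part in the migration of keratinocytes. Its level was 7.97, 8.33 and 7.67 in C1, C2 and C3, and 7.97, 7.85, 8.64, 8.21 and 7.65 in M2, M3, H1, XH1 and XH3. H1, the lowest rat for Areg and Ereg, was the highest rat here. The difference was 0.08 (95% CI −0.52 to 0.67; exact permutation p = 0.821), with a value of −0.07 without H1 and −0.08 without C3.

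Btc (NM_022256), which encodes betacellulin, was not well above background on any array. Its measured means were 2.78 in sham control and 2.69 in blast, and no fold is given.

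Among the blast rats the level was next read against pressure, with 2 rats at 145 kPa, 1 at 175 kPa and 2 at 200 kPa. No member passed this test. With limma's p adjusted over all probes, 0 of 9 genes were under 0.05, where 0% of the 30236 probes were, and at an unadjusted p the count was 0 of 9 beside 860 probes or 2.84%. The mean of Erbb2 was 11.46 at 145 kPa, 11.49 at 175 kPa and 12.14 at 200 kPa, and the fitted difference over the 55 kPa was 0.68 (SE 0.26, limma adjusted p = 0.9999) by its brightest probe. The other 2 probes were lowest at 175 kPa, with means of 9.46, 9.14 and 9.98 and a fitted difference of 0.50 on A_64_P109493, and means of 5.49, 4.45 and 5.50 and a fitted difference of −0.03 on A_64_P038812. On A_64_P109493 it was 0.27 without XH1 and 0.69 without M3. The fitted difference of Tgfa was 0.71 by the first probe and −0.93 by the second, and without M3 these were 0.037 and 0.10. Egfr had means of 10.65, 10.95 and 11.21 in the same order and a fitted difference of 0.57 (SE 0.33), which was 0.26 without M3, 0.33 without XH1 and 0.88 without M2. The mean of Areg was 9.57, 6.98 and 10.97, and that of Ereg was 8.55, 5.51 and 9.61, so the single rat at 175 kPa was below both neighbours and the levels had no steady order with pressure. The fitted differences were 1.28 (SE 1.62) for Areg and 0.93 (SE 1.59) for Ereg. With 1 blast rat left out they ran from 0.29 (without XH1) to 2.72 (without M2) and from 0.050 to 1.72 in the same order. For Areg and Ereg they were −0.0035 and 0.089 with all 8 rats (sham control at 0 kPa). With the slide row as a block they were 0.72 and −0.056. Leaving out M2 brought 3 of the 9 genes under an unadjusted p of 0.05, namely Erbb2, Tgfa and Btc, the last of them not above background, in a fit where 15.7% of all probes were under it. The 2 Tgfa probes were opposed in that fit, at 1.42 (limma adjusted p = 0.301) by the first and −2.24 (limma adjusted p = 0.296) by the second. Leaving out H1 brought Ereg there, with a fitted difference of 1.06 (limma adjusted p = 0.938), beside 4.22% of all probes.

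Members were also compared with each other across the 8 rats, over 36 pairs of genes, Btc included. Areg and Ereg ran together, with r = 0.920 (exact permutation p = 0.00176; adjusted over the 36 pairs, 0.0437). Spearman's rho was 0.833 (exact permutation p = 0.0154, adjusted 0.185). Without H1 and M3, the rats farthest from the median of Areg, r was 0.874. With 1 rat left out in turn r lay between 0.788, without H1, and 0.969, without M3, and the adjusted exact p between 0.0429 and 0.283. The correlation of the deviations from the group means was 0.929. As a background, 2.60% of the 17533 other probes above background and with a value on all arrays had an r with Areg at least as high. In the RefSeq gene table used here (assembly Rrattus_CSIRO_v1, of Rattus rattus), Ereg and Areg are neighbours with 0 protein-coding genes between them, next to Epgn, the gene of a further ligand. That assembly is of the species the labels name, while the Sprague-Dawley strain belongs to Rattus norvegicus, so no coordinates are given.

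Egfr and Erbb2 gave the other pair under 0.05, with r = 0.900 (exact permutation p = 0.00243; adjusted, 0.0437) and rho = 0.881 (exact permutation p = 0.00724, adjusted 0.130). Without C1 and M3, the rats farthest from the median of Egfr, r was 0.736. With 1 rat left out in turn r lay between 0.859 and 0.933, and the adjusted exact p between 0.0714 and 0.162. The share of such probes with an r to Egfr at least as high was 2.21%, so many other probes ran with Egfr as closely. Both adjusted p lay near the threshold. For Egfr with Erbb2 the adjusted p was over 0.05 under all 4 alternatives to the processing, at 0.0737 with scaling to the 75th percentile, 0.0640 with normexp, 0.0509 with outlier spots kept and 0.0580 with the deposited log2 values. For Areg with Ereg it was over 0.05 under 3 of them, at 0.0598, 0.0509 and 0.0580, and 0.0420 with normexp. Each r stayed between 0.882 and 0.921 under these alternatives. Egfr and Tgfa, by its representative probe, had r = 0.839 (exact permutation p = 0.00920, adjusted 0.110) and rho = 0.667 (exact permutation p = 0.0831, adjusted 0.374), and r was 0.436 without C1 and M3, so it rested on those rats. With the second Tgfa probe, taken up after seeing the data, the sign was opposite, at r = −0.834 (exact permutation p = 0.00950, adjusted over 8 pairs 0.0652) and rho = −0.786 (exact permutation p = 0.0279, adjusted 0.0745), and r was −0.481 without C1 and M3. Erbb2 with Areg had r = 0.672 (exact permutation p = 0.0676, adjusted 0.406) and the same rho as Egfr with Erbb2, 0.881. That r was 0.802 without C1 and M3. Erbb2 with Tgfa, by its representative probe, had r = 0.737 (exact permutation p = 0.0418, adjusted 0.355) and rho = 0.690 (exact permutation p = 0.0694, adjusted 0.357). That r was 0.292 without C1 and M3, the 2 rats farthest from the median. By the second Tgfa probe the sign was opposite for this pair too. There r was −0.799 (exact permutation p = 0.0187, adjusted over 8 pairs 0.0652), and −0.629 without C1 and M3. The rho was −0.833 (exact permutation p = 0.0154, adjusted 0.0615). Tgfa with Areg, by the representative Tgfa probe, had r = 0.572 (exact permutation p = 0.141, adjusted 0.498) and rho = 0.762 (exact permutation p = 0.0368, adjusted 0.331). That r was 0.593 without C1 and M3. By the second Tgfa probe r was −0.770 (exact permutation p = 0.0245, adjusted over 8 pairs 0.0652), and −0.755 without H1 and M3. The rho was −0.857 (exact permutation p = 0.0107, adjusted 0.0615). Ereg and Hbegf had r = −0.704 (exact permutation p = 0.0493, adjusted 0.355) and rho = −0.476 (exact permutation p = 0.243, adjusted 0.682), and r was −0.849 without H1 and XH1 but −0.287 without H1 and M3. With Tgfa taken by its representative probe, that pair had the only negative r among the 36 with an unadjusted p under 0.05.

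**Figure D3:**
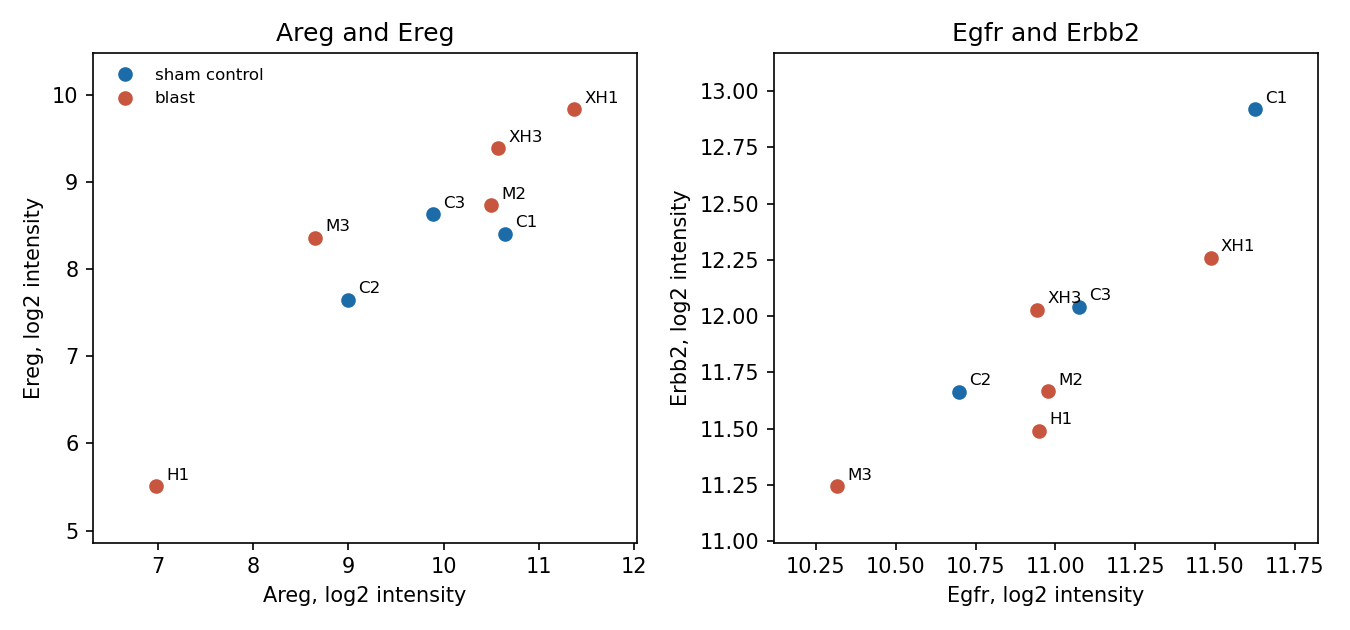
Log2 normalized intensity of Ereg against Areg and of Erbb2 against Egfr, with 1 labelled point per rat, blue for sham control and red for blast. H1 lies far below the other rats on both axes of the first panel, and C1 and M3 mark the ends of the second panel.

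The accessions whose pattern across the 8 rats was most like that of each receptor are given by r alone, among 10128 RefSeq mRNA accessions well above background on all arrays. For Egfr they were NM_001005765 (r = 0.984), NM_001100659 (0.981) and NM_022289 (0.979), and Erbb2 stood at place 293. For Erbb2 they were NM_001033896 (0.985), NM_012637 (0.983) and NM_001106140 (0.981), and Egfr stood at place 171. For Erbb3 they were NM_001100678 (0.969), NM_053818 (0.955) and NM_001108411 (0.952). The symbols of these accessions are not given by the tables used here.

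Of 55 further genes of the pathway (other ligands and receptors, shedding enzymes, the signalling cascade, its inhibitors and its targets), 1 could be named on the array. This was Stat5a (NM_017064), a transcription factor downstream of the receptors. It was named through the primer list of the study, whose genes, apart from the reference, the authors picked for a difference in these same data, so its values are described without an exact test. It read 8.75, 8.48 and 8.46 in C1, C2 and C3, and 7.95, 7.28, 8.22, 7.94 and 7.81 in M2, M3, H1, XH1 and XH3. The groups did not overlap, the highest blast rat (H1) being under the lowest sham control rat (C3), with a difference of −0.72 (limma adjusted p = 0.9999). The share of all probes without overlap was 2.0%, as given above. M3, the lowest rat for Egfr, Erbb2 and Tgfa by their representative probes, was also the lowest for Stat5a.

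Of 46 markers of follicle and other cell types, 1 could be named, the red cell gene Hbb (NM_033234), through the same primer list and thus also picked for a difference in these data. The labelled tissue was therefore not checked against follicle markers here. By its brighter probe Hbb read 10.21, 13.96 and 11.64 in C1, C2 and C3, and 17.42, 13.34, 15.37, 13.31 and 14.43 in M2, M3, H1, XH1 and XH3. The blast mean was higher by 2.84 log2 units (limma adjusted p = 0.9999), with C1 lowest and M2 highest. Its second probe, A_44_P306307, also well above background on all 8 arrays, gave a difference of 3.46 (limma adjusted p = 0.9999), with 4 of the 5 blast rats over the highest sham control rat. The part of blood in the values of the family was not tested.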

How the data were processed

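Follicle RNA of 8 rats was labelled with Cy3 and hybridised to 1-colour Agilent arrays, 1 rat per array. The authors obtained the intensity of each spot with Feature Extraction (version 10.7.1.1 in the file headers), which subtracts background. A table of log2 values, quantile normalized by the authors, served only as an alternative. The members and lists were chosen with earlier results of these data known. Groups came from the pressure in the labels.

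Control spots were removed, as were spots that the software marked as outliers. The mean log2 signal over its remaining spots stood for each probe. Quantile normalization was run on linear intensities, 3.0 was then taken as the lower limit, and results are on the log2 scale. The quantile normalization and the value of the limit follow the methods of the study, while leaving out outlier spots, averaging, setting the limit after the normalization and limma were choices made here. Blast and sham control, and the slope on pressure among blast rats, were fitted in R 4.3.3 by lmFit and eBayes of limma 3.58.1, two-sided, with p adjusted by Benjamini-Hochberg over all probes that had a value on at least 2 arrays of each group (on all 5 arrays for the slope). Standard errors and intervals (95%) are limma's. Exact permutation tests, also two-sided, used the 56 ways to part the rats for single probes and 40320 pairings for correlations. The fits were tested on simulated data with independent noise. The shifts set there were larger than the members' differences between groups, so the power to detect differences of the members' size was not tested.

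Every member is described. The 55 pathway genes and 46 markers were to be used only where a table or the study's primer list paired an accession with a symbol. Of the 26997 accessions, 0 matched the RefSeq gene table. For likeness, each RefSeq mRNA accession was taken by its probe with the highest r to the receptor, which need not be its brightest probe. The 3 accessions with the highest r are named for each receptor. Each array is a separate animal, and the number of arrays limits the precision. Alternatives covered normalization, background, the lower limit, dim probes, outlier spots, the methods' analysis of variance, array weights, blocks for title number and place on the slide, the deposited values, the probe taken and each rat left out.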

Additional observations from a re-analysis of the deposited data

How the results depend on the processing

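No member gene passed the adjusted threshold between groups or with pressure under any alternative run. Of the 9, 0 were under an unadjusted p of 0.05 between groups, except that Ereg, 1 gene, was there (with 5.87% of all probes) without H1 and M3, an alternative chosen after seeing the data, as were those for the correlations. With pressure, 0 to 3 were there with 1 blast rat left out, with 3 without M2, where 15.7% of all probes were and the 2 Tgfa probes were opposed (1.42 and −2.24), and 1 (Ereg) without H1, where 4.22% were. The contrast of 200 against 145 kPa is that same fit without H1. Over all probes, the count at an unadjusted p was 850 in the reported setting, 441 with dim probes removed (fewer probes tested), 1671 with array weights, 1781 without H1 and M3, and 657 to 1649 with 1 rat left out. With limma's adjusted p it was 0, and 0 to 3 with 1 rat left out (2 without C1, 3 without C3). The methods' analysis of variance gave 683 at an unadjusted p and 0 after adjustment. The causes were not tested.

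Whether the title numbers pair the rats could not be decided. Correlations of the deviations from the group means lay between −0.302 and 0.325 for same-numbered rats of the 2 groups. For rats with different numbers they lay between −0.411 and 0.384. The pairs are few and share rats, so no conclusion is drawn. With the number as a replicate block, 850 probes were under an unadjusted p of 0.05, 0 after adjustment, and of the differences only that of the Erbb2 probe A_64_P038812 turned, to −0.0069.

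These differences changed sign. Egf was 0.0011 with normexp and 0.22 as the mean of its probes, of which the second was not well above background on any array. Tgfa was 0.15 with array weights and 0.13 as the mean of its probes, and Areg 0.47 with array weights. With the slide row as a block, A_64_P038812 was −0.093 and Ereg −0.28, and with the side as a block Areg was 0.27. Within row 1, A_64_P038812 was −0.53, Erbb3 −0.13 and Ereg −0.91, and within row 2, with 1 sham control rat, the Erbb2 probe A_64_P109493 was 0.11, Tgfa 0.10 and Areg 0.31. Within side 1 (columns 1 and 2), A_64_P038812 was −0.13, Erbb3 −0.034, Tgfa 0.23, its second probe −0.047 and Areg 0.67, and within side 2, with 1 sham control rat, Egfr was 0.038, A_64_P109493 0.066 and Hbegf −0.28. Without H1 and M3, Egfr was 0.0035, Tgfa 0.10, its second probe −0.19, Areg 0.97 and Hbegf −0.045.

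With 1 rat left out, the difference ran from −0.42 to 0.049 for Egfr, −0.37 to 0.016 for A_64_P109493, −0.11 to 0.23 for A_64_P038812, −0.049 to 0.45 for Erbb3, −0.20 to 0.058 for Egf, −0.67 to 0.43 for Areg, −0.23 to 0.85 for Ereg and −0.084 to 0.25 for Hbegf.

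The fitted difference with pressure turned with all 8 rats (sham control at 0 kPa) for Egfr (−0.031), Erbb2 (−0.11), A_64_P109493 (−0.033), A_64_P038812 (0.0057), Erbb3 (0.042), Egf (−0.019), Tgfa (−0.047), its second probe (0.12) and Areg (−0.0035). It was 0.0063 for A_64_P038812 with 200 against 145 kPa, and −0.024 for Egf and −0.056 for Ereg with the slide row as a block. With 1 blast rat left out it ran from −0.39 to 0.46 for A_64_P038812, −0.33 to 0.17 for Erbb3, −0.35 to 0.49 for Egf, −2.24 to 0.10 for the second Tgfa probe and −0.14 to 0.43 for Hbegf. Signal close to background limits Egf, Btc and the dimmest Erbb2 probe.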
